A study of Mus musculus with 18 samples.

Results

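A set of 10 genes of oxygen sensing and of the response to low oxygen was followed through both count tables of the series (10 of 46983 listed genes). They were chosen by name as textbook members of the pathway, with earlier results from these tables already known, so their levels in the 4 groups are given as a description. The members are the transcription factor subunits Hif1a and Epas1, the oxygen-dependent hydroxylases Egln1, Egln2, Egln3 and Hif1an, and the response genes Vegfa, Adm, Bnip3 and Car9. All 10 have a row in both tables.

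The samples came from male mice of the inbred strain C57BL/6J, and the series title places the question of glutamine in obese mice. The 4 groups were: bone marrow HFD and adipose HFD with 4 libraries each, whose treatment label reads no and genotype label Ctrl, and bone marrow and adipose HFD + Gln with 5 libraries each, whose treatment and genotype labels both read Glutamine. HFD stands in every sample description, so no group without it was analysed. The titles read mBMSC for the bone marrow samples and mAT-MSC VAT for the adipose samples. No age, dose or duration is given in the labels. A pair of numbers names each library, such as 1_3, and the labels do not say what the numbers are or that libraries came from separate animals, so every p-value here reflects the spread among these libraries alone, and that spread may be technical. One bone marrow glutamine column carries a pair found in no title and is called unnumbered here.

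When oxygen is plentiful, the prolyl hydroxylases encoded by Egln1, Egln2 and Egln3 mark the HIF alpha proteins for capture by VHL and destruction. Factor inhibiting HIF, encoded by Hif1an, is an asparagine hydroxylase that blocks the transactivation domain of the same proteins. When oxygen falls, HIF-1 alpha (Hif1a) and HIF-2 alpha (Epas1) escape both marks, pair with ARNT and raise their target genes. Much of this control acts on the protein, so the RNA of Hif1a and Epas1 is not a measure of HIF activity. In fat of obese animals, low oxygen and HIF are studied for their part in vessel growth, inflammation and fibrosis, and in bone the same factors are studied for vessel growth and bone formation.

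Adipose libraries held 35871168 to 59529238 counts and bone marrow libraries 13970788 to 37984603. A count of 100 or more was reached by 11361 to 14469 genes in each adipose library but by 1755 to 7323 in each bone marrow library. Any pair of adipose libraries correlated at 0.818 to 0.938 across genes on the log scale, and any pair of bone marrow libraries at 0.273 to 0.369. Bone marrow libraries 23_28 (HFD) and the unnumbered one held the fewest genes at that level, and 18_20 (glutamine) the most. Osteoblast markers summed to 52049 to 239063 CPM (counts scaled to 1000000 per library) in bone marrow and to 5302 to 10049 CPM in adipose. Neutrophil markers summed to 2698 to 54233 CPM in bone marrow and to 45.7 to 277 CPM in adipose. Adipose progenitor markers summed to 14711 to 21060 CPM in adipose, the label's tissue, and to 1514 to 4633 CPM in bone marrow. In bulk libraries like these, fewer cells of a type and less RNA per cell cannot be told apart.

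In adipose the members formed a graded order. Counts come from the 3′ end of transcripts, so CPM were set side by side between genes without a length correction. Differences between genes in how reads are assigned were not corrected, so the order is a description. Epas1 led at 308 ± 95.2 CPM (SD, n = 9), followed by Adm at 266 ± 69.5 CPM. Hif1a stood at 99.9 ± 24.7 CPM and Egln1, the main oxygen sensor of the family, at 68.9 ± 21.5 CPM. Bnip3 (45.4 ± 16.4 CPM), Egln2 (42.3 ± 20.9 CPM) and Vegfa (40.3 ± 23.2 CPM) lay together, with Bnip3 above Egln2 in 5 of 9 libraries and Egln2 above Vegfa in 5 of 9. Hif1an came next at 25.7 ± 15.1 CPM, then Egln3 at 5.19 ± 4.49 CPM. Of these neighbours, only Adm and Hif1a had ranges that did not overlap.

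**Figure D1:**
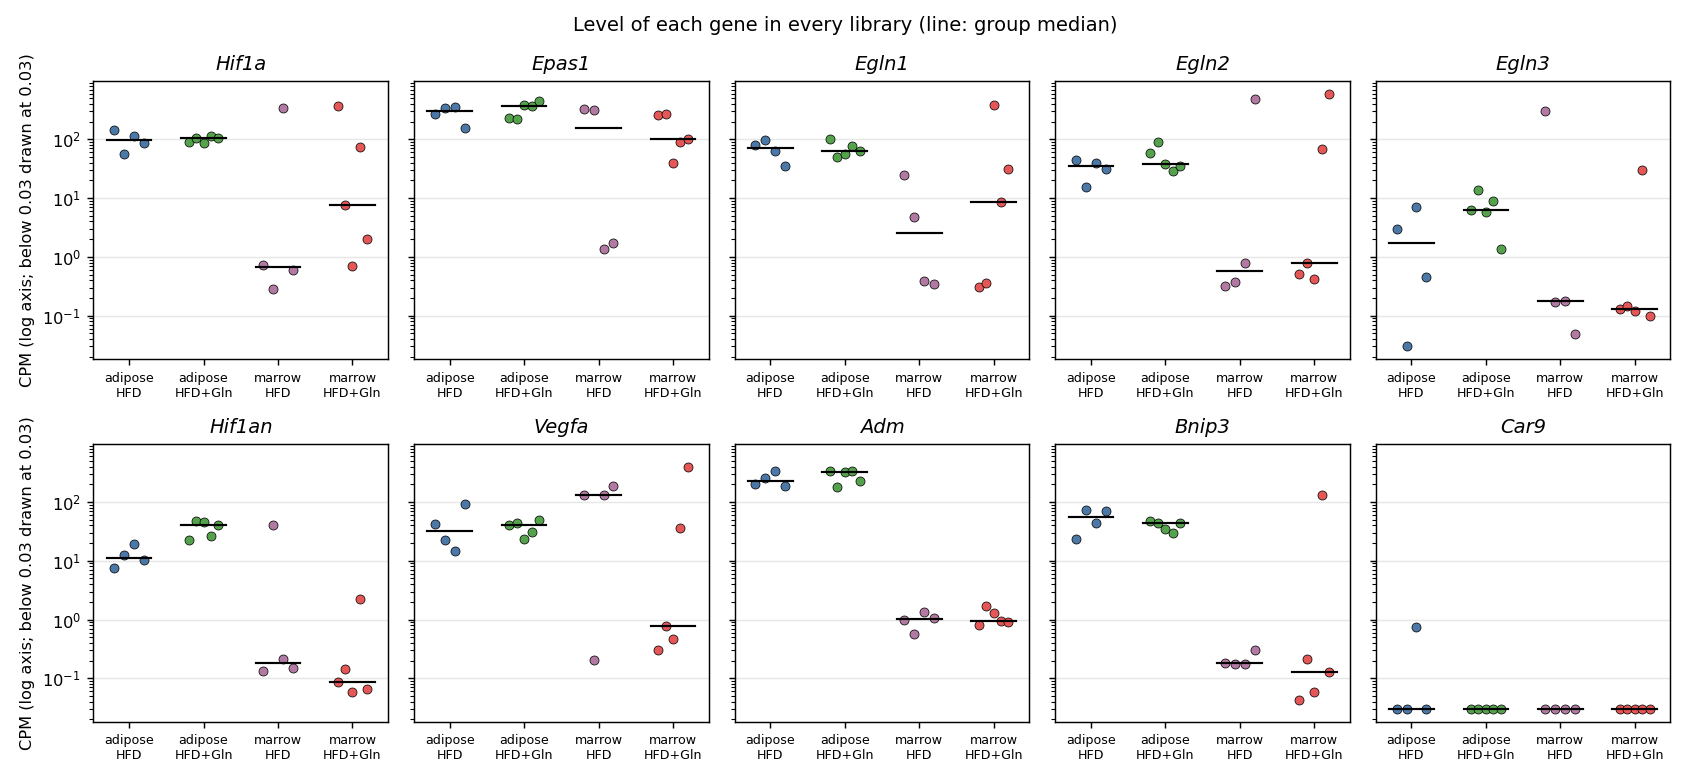
Level of each of the 10 genes in every library, in CPM on a log axis, with 4 HFD and 5 HFD + Gln libraries per tissue as points and the group median as a line; values below 0.03 CPM are drawn at 0.03. Adipose points lie close together while most bone marrow genes split into libraries near adipose levels or above and libraries near or below 1 CPM, and Adm lies at or under 1.72 CPM in all 9 bone marrow libraries.

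Hif1a (chromosome 12, 73901375 to 73947530, plus strand; positions here are GRCm38 with the GENCODE M21 annotation) had 7882, 2015, 5763 and 3916 counts in the adipose HFD libraries and 3733, 6191, 4491, 5480 and 4949 in the adipose glutamine libraries. Counts are given throughout in the order 1_3, 5_11, 14_17 and 23_28 for HFD and 4_6, 10_12, 13_15, 18_20 and 25_27 for glutamine, with the unnumbered library in the place of 13_15 in bone marrow. The lowest and the highest of the 9 were both HFD libraries, and the arms overlapped. In bone marrow its counts were 28, 10, 9639 and 12 in HFD and 8500, 107, 12, 2332 and 62 with glutamine. One HFD library (14_17) and 2 glutamine libraries (4_6 and 18_20) thus held 2332 or more counts and the other 6 between 10 and 107. Hif1a shares exon bases with the antisense gene Gm15283, which had 159 counts over all adipose libraries and 0 in bone marrow, and on the same strand with Gm49321, which has no row in the tables. Egln2 overlaps Cyp2t4, at 0 counts in both tables, and Bnip3 overlaps the antisense gene Gm45507, which has no row.

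Epas1 (chromosome 17, 86753700 to 86833410, plus strand), the HIF alpha subunit best known from endothelium, had 14300, 12388, 18026 and 7070 counts in adipose HFD and 9596, 13027, 19908, 17796 and 21188 with glutamine. It exceeded Hif1a in all 9 adipose libraries, by 1.49 ± 0.84 on the log2 scale in HFD (SD, n = 4) and 1.68 ± 0.46 with glutamine (n = 5), computed within each library after adding 1 count. In bone marrow Epas1 was the member most often present, with 12332, 10820, 38 and 35 counts in HFD and 5960, 3747, 679, 2832 and 3094 with glutamine. All 5 glutamine libraries and 2 of 4 HFD libraries there had over 100 counts. Endothelial markers, 9 genes of the cells that line vessels, summed to 588 to 1546 CPM in adipose HFD, 950 to 2153 with glutamine, and 3.77 to 721 CPM in bone marrow, and their part in the Epas1 level was not tested.

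Among the hydroxylases, Egln1 (chromosome 8, 124908587 to 124949324, minus strand) varied least in adipose, with 4245, 3502, 3298 and 1582 counts in HFD and 4207, 3020, 2837, 3639 and 2975 with glutamine. Its bone marrow counts were 952, 165, 11 and 7 in HFD and 7, 5, 6382, 266 and 945 with glutamine, with the highest value in the unnumbered library. Of the 9 libraries 5 passed 100 counts, in both arms.

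Egln2 (chromosome 7, 27158658 to 27166802, minus strand), a mostly nuclear family member, had 2359, 556, 2078 and 1400 counts in adipose HFD and 2461, 5274, 1956, 1414 and 1670 with glutamine. In bone marrow it had 9669 counts in HFD library 23_28 and 18350 and 2164 in glutamine libraries 25_27 and 18_20, but 7 to 22 in the other 6. A library with 7 counts and a library with the highest level of any member, 597 CPM, therefore stood in the same arm.

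Egln3 (chromosome 12, 54178981 to 54203860, minus strand), itself a HIF target that feeds back on the pathway, was the scarcest hydroxylase in adipose. Its counts were 164, 0, 365 and 21 in HFD and 266, 823, 298, 422 and 65 with glutamine, and the count of 0 in library 5_11 allows up to 0.0836 CPM at 3 counts, for counting error only. Egln3 lay below Egln1 in all 9 adipose libraries. In bone marrow it had 11427 counts in HFD library 1_3, 921 in glutamine library 18_20, and 1 to 6 in the other 7.

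Hif1an (chromosome 19, 44562850 to 44576274, plus strand) was the 1 member whose adipose arms did not overlap. It had 406, 450, 1000 and 462 counts in HFD and 952, 2801, 2305, 1284 and 1885 with glutamine, or 7.52 to 19.4 CPM against 22.7 to 47.1 CPM. In bone marrow 1430 counts stood in HFD library 5_11 and 69 in glutamine library 18_20, and the other 7 libraries had 1 to 6.

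**Figure D2:**
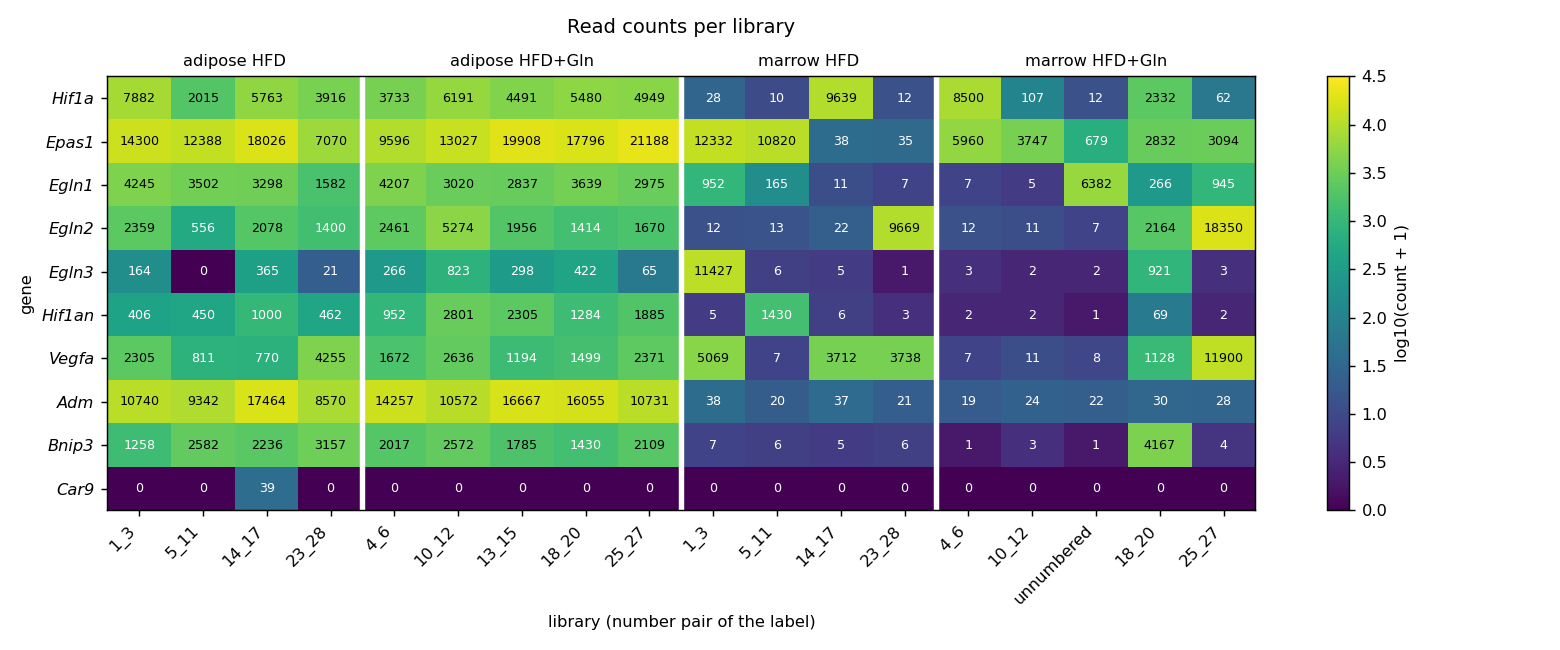
Read counts of the 10 genes (rows) in the 18 libraries (columns, by group and number pair), coloured by log10 of the count plus 1. Adipose columns are filled for 8 of 10 genes, while bone marrow entries mostly lie far above 100 or near 10, and glutamine library 18_20 holds 7 of the 10 at 100 or more counts.

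The response genes are the outputs of the pathway. Promoter windows of 250 bases before the start, from RefSeq on GRCm38.p6, were read for the 9 members with an entry (11 windows). They were searched on both strands for the HIF core motifs ACGTG and GCGTG, and matches may overlap, since a palindrome counts on both strands. The first motif was in 7 of the 11 windows and the second in 6, against 16.6% and 28.2% of all 32851 windows of the same length. Either motif was in 9 of the 11 windows, against 38.6% of all windows. The only Hif1a window and 1 of 2 windows each of Egln2 and Vegfa lie inside the annotated gene. For Vegfa that inner window held 1 match to each motif, and the window at the outer end of the gene held neither. A match here is a stretch of letters, not a bound site, and GC content, which was not matched, ran from 48.0% to 86.0% over the 11 windows. The windows of 4 genes that the counts below turn on are shown, with both motifs in capitals: a response gene under 100 counts in every bone marrow library (Adm), the response gene present in 1 marrow library (Bnip3), a feedback hydroxylase (Egln3), and the gene whose adipose arms separate (Hif1an). They lie at chr7:110627407-110627656 (plus strand), chr7:138909507-138909756 (minus), chr12:54203875-54204124 (minus) and chr19:44562604-44562853 (plus), written 5′ to 3′ toward the start.
Adm: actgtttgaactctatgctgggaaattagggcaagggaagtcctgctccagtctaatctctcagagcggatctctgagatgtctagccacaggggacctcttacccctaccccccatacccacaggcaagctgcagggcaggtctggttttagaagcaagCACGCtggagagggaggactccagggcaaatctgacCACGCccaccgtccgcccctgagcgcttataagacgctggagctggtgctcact
Bnip3: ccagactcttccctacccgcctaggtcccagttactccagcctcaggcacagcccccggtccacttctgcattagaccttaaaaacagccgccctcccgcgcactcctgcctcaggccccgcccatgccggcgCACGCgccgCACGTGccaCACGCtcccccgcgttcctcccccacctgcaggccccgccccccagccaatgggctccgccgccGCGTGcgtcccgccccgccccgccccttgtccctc
Egln3: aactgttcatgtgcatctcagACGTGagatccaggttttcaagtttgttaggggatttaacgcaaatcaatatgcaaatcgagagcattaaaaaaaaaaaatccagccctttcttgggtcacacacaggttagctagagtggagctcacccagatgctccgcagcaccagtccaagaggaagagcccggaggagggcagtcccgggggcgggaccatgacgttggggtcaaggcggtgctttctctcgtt
Hif1an: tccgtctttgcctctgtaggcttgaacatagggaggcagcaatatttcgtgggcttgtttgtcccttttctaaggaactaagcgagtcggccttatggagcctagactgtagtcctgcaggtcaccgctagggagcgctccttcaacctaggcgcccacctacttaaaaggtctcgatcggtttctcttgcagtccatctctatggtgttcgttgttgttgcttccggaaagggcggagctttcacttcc
Adm held 2 matches to the second motif and none to the first, Bnip3 a palindrome with the first motif on both strands and 3 matches to the second, Egln3 1 match to the first motif 229 bases before the start, and Hif1an neither motif in this window.

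Adm encodes adrenomedullin, a vasodilator peptide that also acts on lymphatic and blood endothelium (chromosome 7, 110627661 to 110629820, plus strand). In adipose it had 10740, 9342, 17464 and 8570 counts in HFD and 14257, 10572, 16667, 16055 and 10731 with glutamine. In bone marrow it had 38, 20, 37 and 21 counts in HFD and 19, 24, 22, 30 and 28 with glutamine. No library of one tissue reached the range of the other: the lowest adipose library stood at 178 CPM and the highest bone marrow library at 1.72 CPM, and the ratio of the tissue means was 248.

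Besides Car9, Adm was therefore the member that no bone marrow library showed at 100 counts. Of 8790 genes with 100 or more counts in all 9 adipose libraries, 1246 (14.2%) also never reached 100 in bone marrow. Among the 600 genes whose adipose mean was at least that of Adm, 11 (1.83%) never did. Counts under 100 in bone marrow scaled with the adipose level across genes, with a median of 0.227% to 0.476% of the adipose mean count per library and a Spearman correlation of 0.604 to 0.792 across 2895 to 7305 genes, which are not independent. The median marrow count of Adm, 24, was 0.189% of its adipose mean, and those of Hif1a, Epas1, Egln1 and Bnip3 among libraries under 100 were 0.243%, 0.246%, 0.215% and 0.212%. Hif1an stood at 0.195%, Vegfa at 0.385%, Egln2 at 0.563% and Egln3 at 1.11%. Vegfa, Egln2 and Egln3 also had a higher mean in bone marrow (97.4, 128 and 36.8 CPM) than in adipose (40.3, 42.3 and 5.19 CPM). The share is of the adipose count alone and leaves out the bone marrow libraries that held these genes. The labels place sequencing on 1 lane, and a transfer of reads between libraries was not tested.

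Vegfa, the main growth factor for blood vessels (chromosome 17, 46016993 to 46032369, minus strand), had 2305, 811, 770 and 4255 counts in adipose HFD and 1672, 2636, 1194, 1499 and 2371 with glutamine. The HFD libraries spanned 14.9 to 93.7 CPM and held the glutamine range of 23.3 to 50.2 CPM inside it. In bone marrow Vegfa had 5069, 7, 3712 and 3738 counts in HFD and 7, 11, 8, 1128 and 11900 with glutamine. It had 1128 or more counts in 5 libraries, 3 of them HFD, and 4 marrow libraries lay above every adipose library.

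Bnip3, a mitochondrial outer membrane protein that marks mitochondria for autophagy (chromosome 7, 138890836 to 138909519, minus strand), had 1258, 2582, 2236 and 3157 counts in adipose HFD and 2017, 2572, 1785, 1430 and 2109 with glutamine. In bone marrow 8 of 9 libraries had 1 to 7 counts and glutamine library 18_20 had 4167. That library also held Hif1a, Epas1, Egln1, Egln2, Egln3 and Vegfa at 100 or more counts, 7 members in all, where the other bone marrow libraries held 2 to 4.

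Car9, the membrane carbonic anhydrase widely used as a hypoxia marker in tumours (chromosome 4, 43506966 to 43513729, plus strand), had 39 counts in adipose HFD library 14_17 and 0 in the other 17 libraries. At 3 counts per library these zeros allow up to 0.0836 CPM in adipose and 0.215 CPM in bone marrow, for counting error only. The antisense gene Gm12454 shares exon bases with Car9 and had 167 counts over the adipose libraries, and the strand setting of the counting is not given in the sources used here, so the 39 counts cannot be assigned to Car9 with certainty.

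**Figure D3:**
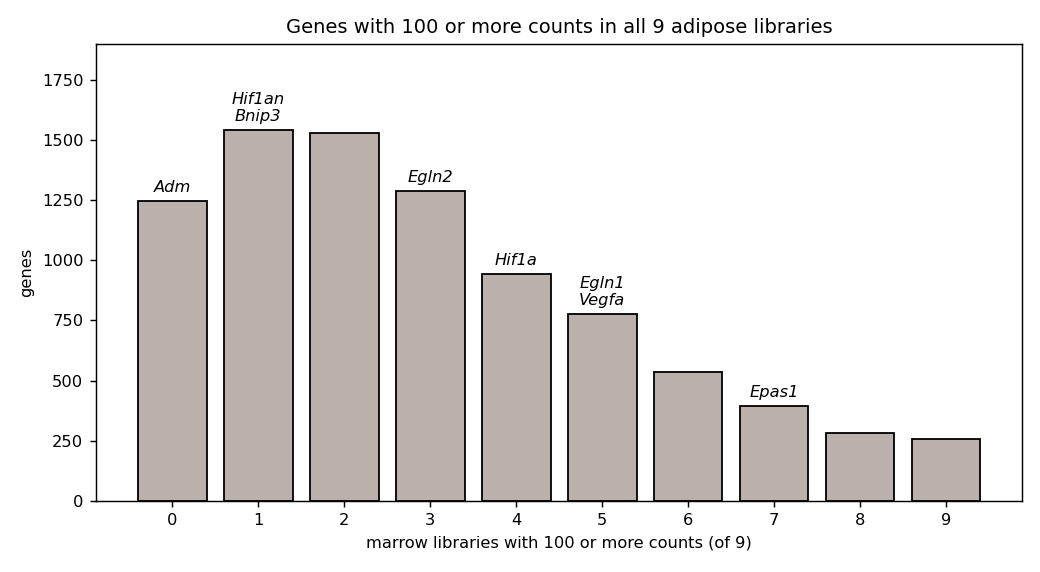
Number of genes (vertical axis) by how many of 9 bone marrow libraries held them at 100 or more counts (horizontal axis), among the 8790 genes at that level in all 9 adipose libraries, with the 8 members of that set written over their bars. The median gene reached 100 counts in 3 marrow libraries; Adm stands in the bar at 0, Hif1an and Bnip3 at 1, and Epas1 at 7.

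By mean level the bone marrow order ran from Epas1 at 155 ± 134 CPM (SD, n = 9) through Egln2, Vegfa, Hif1a, Egln1, Egln3, Bnip3 and Hif1an to Adm at 1.07 ± 0.33 CPM and Car9 at 0. All neighbours above Adm overlapped in range, and Vegfa exceeded Hif1a in 3 of 9 libraries although its mean was higher. The presence of the members in bone marrow was spread over the range of other genes. The median of the 8790 genes was 3 marrow libraries, against 0 for Adm, 1 for Hif1an and Bnip3, 3 for Egln2, 4 for Hif1a, 5 for Egln1 and Vegfa, and 7 for Epas1. At or below 7 libraries stood 93.9% of those genes. Members did not come and go together: in HFD library 14_17 Hif1a had 9639 counts, Vegfa 3712 and Epas1 38, and in HFD library 5_11 Epas1 had 10820, Hif1an 1430 and Hif1a 10. The log2 ratio of Epas1 to Hif1a accordingly ran from -7.95 to 9.94 over the bone marrow libraries.

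The first comparison asks how glutamine related to these genes in adipose. Hif1an was higher in every glutamine library than in every HFD library, 36.3 ± 11.0 CPM (SD, n = 5) against 12.4 ± 5.08 CPM (n = 4). Its log2 fold change was 1.53 ± 0.41 (SE), the 21st smallest of 15114 p-values in the edgeR quasi-likelihood test (unadjusted p = 0.00216), and it did not pass adjustment (adjusted p = 1.00). Arms without overlap were seen in 251 of the 15114 genes tested (1.66%), and in 1 of the 9 members tested. None of the 9 was called, as 0% of all genes were: 0 genes at an adjusted p under 0.05, 624 at an unadjusted p under 0.05, 31 with DESeq2 and 0 with limma-voom. DESeq2 gave Hif1an an adjusted p of 0.0835, the smallest over 8 other settings, whose largest was 1.00. Without any one library its fold change stayed between 1.36 and 1.80.

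The other adipose members had smaller or less certain differences. Egln3 differed by 1.46 ± 1.37 and Egln2 by 0.61 ± 0.39 (log2 HFD + Gln over HFD ± SE, edgeR). Epas1 (0.23 ± 0.27), Adm (0.17 ± 0.24), Hif1a (-0.02 ± 0.25) and Egln1 (-0.01 ± 0.31) had estimates within 1 SE of 0, and the last pair changed sign with upper-quartile factors. Bnip3 stood at -0.40 ± 0.34. Vegfa stood at -0.23 ± 0.47, but at 0.47 without HFD library 23_28 and at 0.39 with limma-voom. The adjusted p was 1.00 for each of these 8, and Car9 was not tested because of its low counts.

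Macrophage markers summed to 667 to 1870 CPM in adipose HFD and 334 to 767 CPM with glutamine, with all 9 genes at 100 counts or more in some library of each arm. Mesothelial markers summed to 221 to 467 CPM in HFD and 2.58 to 599 CPM with glutamine. The part of these cell mixtures, and of the endothelial markers given above, in the Hif1an difference was not tested.

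**Figure D4:**
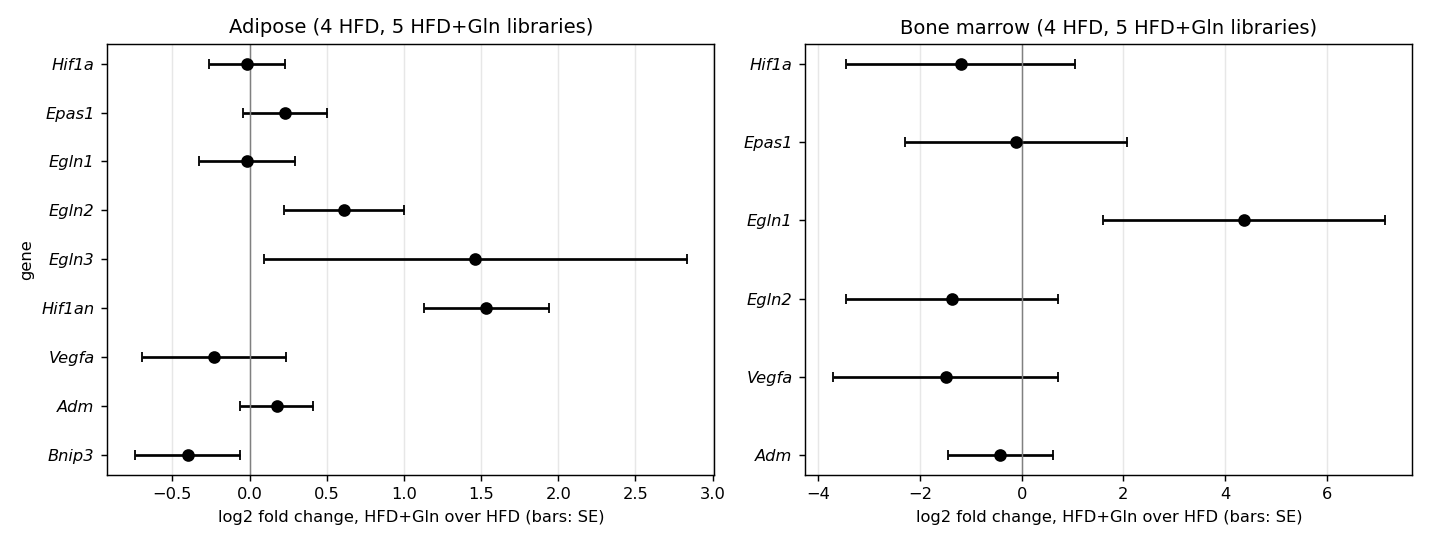
Log2 fold change of HFD + Gln over HFD with its SE for the members tested in adipose (left, 9 genes) and bone marrow (right, 6 genes), from edgeR with 4 HFD and 5 HFD + Gln libraries each; the horizontal scales differ. Hif1an at 1.53 is the adipose estimate farthest from 0 in units of its SE, and in bone marrow every SE is at least 1.03.

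In bone marrow the same comparison rested on libraries that held a gene or did not. None of the 6 members tested was called, where 8 of 6041 genes (0.132%) were. Egln1 had the estimate farthest from 0 at 4.37 ± 2.77 (log2 HFD + Gln over HFD ± SE, edgeR adjusted p = 0.425), with 378 CPM in the unnumbered library and 0.301 to 30.7 CPM in the other 4 glutamine libraries. Without the unnumbered library and HFD library 23_28, the pair with the fewest genes, it was -0.13. Vegfa (-1.50 ± 2.22), Egln2 (-1.37 ± 2.08), Hif1a (-1.20 ± 2.25), Adm (-0.42 ± 1.03) and Epas1 (-0.11 ± 2.18) had SEs larger than their estimates. Hif1a became 6.52 without HFD library 14_17 and Egln2 7.39 without HFD library 23_28. Epas1 became 0.56 under RLE (relative log expression) scaling and 0.76 under upper-quartile scaling, and limma-voom gave positive values for Epas1, Hif1a and Egln2.

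No member tested in bone marrow had arms that did not overlap, where 3.77% of genes did. Egln3, Hif1an and Bnip3 did not pass the filter on low counts there and Car9 had no counts. A joint fit of all 18 libraries admits genes through their adipose counts, and it called 3926 genes, Hif1an and Bnip3 among them. Both rest on 1 bone marrow library each, with 1430 counts of Hif1an against at most 69 in the others and 4167 of Bnip3 against at most 7. That fit estimates 1 spread for each gene over both tissues.

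Whether the glutamine effect differed between tissues was tested in the fit of 18 libraries, as the adipose minus the bone marrow log2 fold change. Hif1an was called at 6.47 ± 2.10 (edgeR adjusted p = 0.0487), 1 of 9 members tested where 1811 of 15203 genes (11.9%) were called. It entered this test through its adipose counts, since it did not pass the filter in bone marrow alone. On the bone marrow side HFD library 5_11 alone held 1430 counts, and without it the difference was 1.06 (adjusted p = 0.735). It was lost in 15 of the 18 fits that left out 1 library. The number of genes called fell to 0 with RLE or upper-quartile factors, and in 10 of the 18 left-out fits. Bnip3 stood at -6.47 ± 2.41 (adjusted p = 0.0729) and at 0.74 without glutamine library 18_20. Egln3 stood at 5.78 ± 3.00 and became -2.73 without HFD library 1_3, and Egln1 stood at -4.06 ± 2.33. The other 5 members lay between 0.27 and 1.19 with SEs of 1.36 to 2.65.

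The difference between the tissues was led by Adm. It was 6.01 ± 0.86 higher in adipose (log2 difference ± SE with 9 libraries per tissue, edgeR adjusted p = 7.99e-06). It was called in all 18 fits without 1 library (5.92 to 6.30) and in 10 of 11 fits that differed in scaling, filter, tool or libraries, the reported one included. The exception was upper-quartile factors (2.37, adjusted p = 0.0533). With RLE factors it was 2.17. The scaling shifted all genes: the median log2 difference over all genes tested was 1.43 with TMM, -1.94 with RLE and -0.89 with upper-quartile factors. Relative to that median, Adm lay 2.24 to 4.79 higher over the 11 fits.

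Over all genes 7858 of 15203 (51.7%) were called, 6150 higher in adipose (40.5%) and 1708 lower (11.2%); with RLE factors the split was 2465 and 6524, and with upper-quartile factors 3222 and 5144. Of the 9 members tested 4 were called, 1 higher and 3 lower in adipose. That split depended on the fit: it was 1 higher and 6 lower with RLE factors, 0 and 6 with upper-quartile factors, and 3 and 0 with limma-voom and with the number pair as a block. The genes lower in adipose were Egln2 at -3.77 ± 1.48 (edgeR adjusted p = 0.0383), Egln3 at -3.76 ± 1.57 (0.0491) and Vegfa at -3.19 ± 1.26 (0.0384). Egln2 became 0.58 without bone marrow HFD library 23_28 and 1.36 with limma-voom, and Egln3 0.83 without HFD library 1_3. Egln3 did not pass the count filter in bone marrow alone and entered this test through its adipose counts. Vegfa kept a negative value in the 11 fits and the 18 left-out fits, but it was called in 8 of the 18 left-out fits. It stood at -1.19 without glutamine library 25_27 (adjusted p = 0.330), at -0.59 with limma-voom (adjusted p = 0.743) and at -0.90 with the block (adjusted p = 0.713). Relative to the median of all genes, Egln2, Egln3 and Vegfa lay below 0 in all 11 fits, as did Hif1a, Epas1 and Egln1. The 11 fits share libraries, and the highest of these relative values was -0.50 for Hif1a and -0.022 for Egln1. Bnip3 lay above 0 in all 11 fits (0.72 to 2.61), and Hif1an below in 2 and above in 9.

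The other members were not called with TMM factors. Neither Bnip3 nor Hif1an passed the count filter in bone marrow alone, so both entered this test through their adipose counts. Bnip3 was 2.70 ± 1.18 (adjusted p = 0.0592) and 6.30 without bone marrow library 18_20, where it was called (adjusted p = 9.61e-07). That fit left out the only bone marrow library with more than 7 counts of Bnip3, so the call followed from the choice of library. Bnip3 was also called with limma-voom (4.72, adjusted p = 0.00659) and with the block (5.76, adjusted p = 0.00536). Hif1an was 1.60 ± 0.99 (adjusted p = 0.176), became 4.62 without HFD library 5_11, where it was called (adjusted p = 0.000231), and -1.08 with RLE factors. Library 5_11 was the only bone marrow library with 100 or more counts of Hif1an. Hif1an was also called with limma-voom (3.85, adjusted p = 0.0160) and with the block (4.38, adjusted p = 0.00947). Hif1a (-1.81 ± 1.23), Epas1 (-0.78 ± 0.81) and Egln1 (-0.51 ± 1.12) turned positive with limma-voom. RLE factors called Hif1a, Epas1 and Egln1 lower in adipose, at -5.78, -4.45 and -4.32. Each tissue had its own cells and its own count table, and what these contribute to the differences cannot be told apart. Mesothelial markers summed to at most 2.15 CPM and endothelial markers to at most 721 CPM in bone marrow. The median endothelial sum there was 26.8 CPM in HFD and 5.75 CPM with glutamine. In each arm 2 of the 9 endothelial genes reached 100 counts in some bone marrow library. The part of both marker sets in the Adm difference was not tested.

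**Figure D5:**
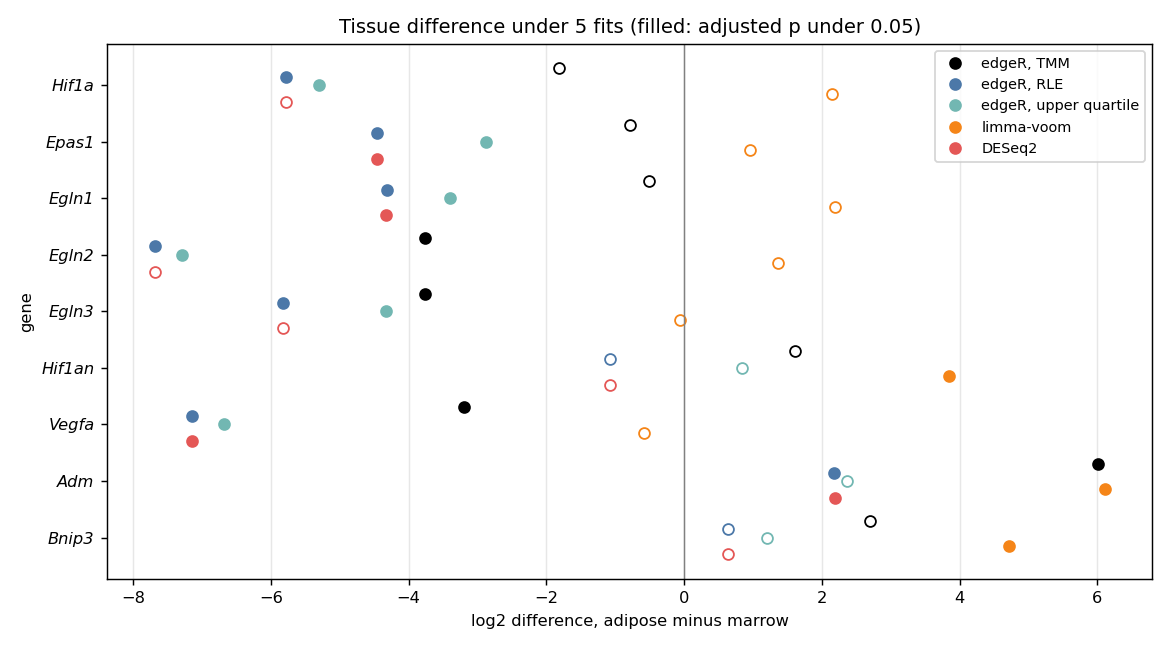
Log2 difference of adipose minus bone marrow for the 9 members tested under 5 fits (colours), with filled points for an adjusted p under 0.05 and hollow points for a higher or missing one, and 9 libraries per tissue. Adm lies between 2.17 and 6.11 in these fits, while Hif1a, Epas1, Egln1 and Egln2 change side between limma-voom and the others.

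A further 7 lists, holding 114 distinct genes, set the members among their partners. In the adipose glutamine comparison 0 of 106 tested were called, and 8 (7.55%) had an unadjusted p under 0.05 against 4.13% of all genes. In bone marrow 0 of 59 were called and 13 (22.0%) were under 0.05, against 18.7% of all genes. In the test of adipose against bone marrow effects of glutamine 7 of 106 were called, where 11.9% of all genes were. The log2 fold change was higher in adipose for Pfkfb3 (by 7.75 ± 2.42) and lower for Tceb1, Kdm4b, Higd1a, Ddit4, Bcl2l13 and Car13 (-9.67 to -6.58). In bone marrow Pfkfb3 had 100 or more counts in 1 HFD library alone. The others had that level in no HFD library and in 1 (Car13), 2 (Higd1a) or 3 of the 5 glutamine libraries. Car13 did not pass the count filter in bone marrow alone and entered through its adipose counts. No gene was called for the difference of effects with RLE or upper-quartile factors.

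Between tissues 55 of 106 list genes (51.9%) were called with TMM factors, 40 higher and 15 lower in adipose, a share near the 51.7% of all genes. Only 59 list genes passed the count filter in bone marrow alone, so others entered this test through their adipose counts. Of these 55, 21 lost the call with RLE factors, 16 with upper-quartile factors and 23 with limma-voom. Over these fits 7 changed sign: Stub1, Tceb1, Usp20, Ackr3, Map1lc3a and Ddit4, higher in adipose with TMM, and Gpi1, lower in adipose with TMM.

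In the list of HIF subunits and oxygen-sensing machinery, 17 of 18 genes were tested in adipose and none was called, with a median log2 fold change of -0.07 against -0.02 for all genes. Siah2, a ubiquitin ligase that acts on the prolyl hydroxylases, had 26.3 ± 10.7 CPM (SD, n = 5) with glutamine and 13.3 ± 2.06 CPM (n = 4) in HFD, a log2 fold change of 0.97 ± 0.43 (unadjusted p = 0.0409, edgeR adjusted p = 1.00). Between tissues 6 of the 17 genes tested were called higher in adipose and 2 lower, beside 40.5% and 11.2% of all genes. Only 9 of the list passed the count filter in bone marrow alone. Vhl, which captures hydroxylated HIF, was among the higher at 4.84 ± 0.88, with 35.0 ± 15.5 CPM in adipose HFD and 1.15 ± 2.11 CPM in bone marrow HFD, but 1.30 and not called with RLE factors (adjusted p = 0.123). Vhl had 100 or more counts in 1 bone marrow library, an HFD one, so it entered this test through its adipose counts. Arnt, the HIF beta subunit, was lower in adipose at -3.34 ± 1.18, with 0.536 to 472 CPM over the bone marrow HFD libraries, and was not called with limma-voom (-0.73, adjusted p = 0.665).

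Of 19 glycolytic targets, none was called for glutamine in adipose or among the 11 tested in bone marrow. Slc16a3, the lactate exporter of glycolytic cells, had 0.116 to 0.920 CPM in adipose HFD and 2.58 to 8.72 CPM with glutamine, a log2 fold change of 3.77 ± 1.38 (unadjusted p = 0.0163, edgeR adjusted p = 1.00). The glucose transporter Slc2a3 had 7.67 ± 5.73 CPM in HFD and 24.6 ± 15.3 CPM with glutamine (1.67 ± 0.87). In bone marrow Pfkfb3, which sets the pace of glycolysis, had 389 CPM in 1 HFD library and at most 0.609 CPM in the 5 glutamine libraries (-7.56 ± 2.95, adjusted p = 0.197). Gapdh, Eno1 and Pgam1 were called higher in adipose at 5.27, 6.20 and 6.60, and Gapdh not with RLE or upper-quartile factors. None of them had 100 counts in any bone marrow library, so they entered this test through their adipose counts. They have many near-identical copies in the genome between which reads can be split or lost, and their levels are uncertain.

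Of 34 other hypoxia targets tested in adipose, 22 had a negative glutamine fold change, where 51.4% of all genes did, and none was called. Cxcr4, the receptor of the chemokine CXCL12, had 48.8 ± 25.9 CPM in HFD and 17.9 ± 8.54 CPM with glutamine, a log2 fold change of -1.47 ± 0.46 (unadjusted p = 0.00626, edgeR adjusted p = 1.00). Its arms overlapped slightly, from 26.0 to 79.3 CPM in HFD and from 7.16 to 27.0 CPM with glutamine. Fam162a stood at -0.63 ± 0.26. Lox, which crosslinks collagen, stood at 0.48 ± 0.20, with 264 ± 25.8 CPM in HFD and 374 ± 99.9 CPM with glutamine.

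Of 6 adrenomedullin peptide and receptor genes tested besides Adm, 5 were called higher in adipose and none lower, where 40.5% of all genes were called higher. Only Ackr3 and Ramp2 passed the count filter in bone marrow alone, so Calcrl, Ramp3 and Calca entered this test through their adipose counts. Of the 5, Ackr3 was lower in adipose with RLE (-0.86) and upper-quartile factors (-0.83). Calca was not called with RLE factors (edgeR adjusted p = 0.0632) or with limma-voom (adjusted p = 0.531). Calcrl, the receptor for adrenomedullin, had 26.0 ± 5.13 CPM in adipose HFD and 0.0999 ± 0.0570 CPM in bone marrow HFD (log2 difference 6.60 ± 0.84). Its partners Ramp2 and Ramp3 differed by 5.87 ± 0.84 and 5.95 ± 0.92. With RLE factors these 3 differences were 2.92, 2.09 and 2.20 and stayed called. With glutamine in adipose, Ramp2 had 185 ± 69.7 CPM against 108 ± 36.1 CPM in HFD (0.76 ± 0.30, unadjusted p = 0.0255, edgeR adjusted p = 1.00). Calca, which encodes calcitonin and the related peptide CGRP, had 0.0836 to 35.7 CPM in adipose HFD and at most 1.27 CPM with glutamine (-4.74 ± 1.60, adjusted p = 1.00).

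Of 9 genes of the VEGF family and its receptors besides Vegfa, 5 were called higher in adipose and 1 lower, beside 40.5% and 11.2% of all genes. Only 5 of the 9 passed the count filter in bone marrow alone. Flt4 had at most 0.248 CPM in bone marrow, and Vegfc had 100 or more counts in 1 library there. Both are among the genes called higher and entered this test through their adipose counts. The receptor Kdr, which carries most endothelial VEGF signalling, had 358 ± 161 CPM in adipose HFD and 1.68 ± 0.632 CPM in bone marrow HFD (5.95 ± 0.82). Kdr is also 1 of the 9 endothelial markers. Flt1 and Flt4 differed by 5.65 ± 0.88 and 5.66 ± 0.76. With upper-quartile factors Kdr was at 2.40 (adjusted p = 0.0593) and Flt1 at 2.00 (adjusted p = 0.0915), and neither was called with RLE factors. The co-receptor Nrp2 was lower in adipose at -4.61 ± 0.87. None of these 9 was called for glutamine, and Kdr in adipose stood at 0.54 ± 0.33.

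Bnip3 relatives and mitophagy genes had 4 of 12 called higher in adipose (40.5% of all genes were), among them Bcl2l1 at 6.66 ± 0.72, and none for glutamine in either tissue. Only 9 of the 12 passed the count filter in bone marrow alone. Bcl2l1 had at most 0.143 CPM in bone marrow, so it entered the tissue test through its adipose counts. With RLE factors Bcl2l1 stood at 2.96 and stayed called. Bcl2 stood at -0.46 ± 0.23 and Gabarapl1 at 0.49 ± 0.26 in adipose (log2 HFD + Gln over HFD). Of 10 carbonic anhydrases tested, 6 were called higher in adipose and 3 lower, beside the same 40.5% and 11.2%. Car1, Car2 and Car3, the 3 called lower, were the only ones that passed the count filter in bone marrow alone. The 6 called higher entered this test through their adipose counts, and Car7 and Car14 had 0 CPM in every bone marrow library. Car1 and Car2, the cytosolic enzymes of red cells and, for Car2, of osteoclasts, were lower in adipose at -11.24 ± 0.68 and -10.31 ± 0.78, with Car2 at 2078 ± 1695 CPM in bone marrow HFD and 5.18 ± 2.23 CPM in adipose HFD. Erythroid markers, a list that holds Car1 and Car2 themselves, summed to 6206 to 19017 CPM in bone marrow and 1901 to 17829 CPM in adipose, and their part in the Car1 and Car2 differences was not tested.

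The genes closest to 4 members across the 9 adipose libraries were sought by the root-mean-square distance of centred log2 CPM among 7598 genes. Babam1 was nearest to Hif1a (a distance of 0.138), followed by Abcd3 and Ss18. Rev3l was nearest to Vegfa (0.176), followed by Parp2 and Cblb. Colgalt1 was nearest to Adm (0.134), followed by Meg3 and Dync1i2, and Itch was nearest to Bnip3 (0.132), followed by Hist1h1e and Dnajc2. The nearest of so many genes lies close by selection, so these distances are a description. None of these 12 is itself one of the 114 listed genes.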

How the data were processed

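RNA from 9 bone marrow and 9 adipose samples was made into 3′-end libraries from 30 ng of total RNA, and read 1 alone was used, per the labels' protocols. Each deposited table gives the authors' raw read counts, as whole numbers for each gene. Per the submitters' processing notes the build was GRCm38 and the tools were STAR 2.7.10b, HTSeq 0.11.3 and FastQC 0.12.1. For the annotation and the strand setting, nothing is given in the sources used here. No molecular identifiers are named, so amplified copies are counted.

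Counts were tested with edgeR 4.0.16 in R 4.3.3 (filterByExpr, TMM factors, quasi-likelihood F test, Benjamini-Hochberg adjustment over all genes tested, calls at an adjusted p under 0.05), on 9 libraries per tissue for glutamine and on 18 for the tissue terms. The SE is the absolute log2 fold change divided by the square root of F. CPM uses total counts. The method was tested on simulated counts. Groups follow the labels for tissue and treatment; 1 glutamine marrow column matched its group but no single title. Alternatives used other scalings, filters, limma 3.58.1, DESeq2 1.42.0, a joint fit, a block and left-out libraries.

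The members and the 7 gene lists were chosen with earlier results of these data known. Named genes are all members, the 3 smallest p-values of each list per glutamine fit, and called genes, of which some are described; Elob, Eloc and Vegfd were matched as Tceb2, Tceb1 and Figf, and 1 result is not reported here. No protein sequence was used.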

Additional observations from a re-analysis of the deposited data

Results flagged for a closer look

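Of 37 groups of 4 or 5 libraries, 13 had a highest or lowest library set apart from the rest by more than Dixon's 95% limit. Chance flags about 1 in 20 for normally distributed values. Bone marrow CPM near 0 in some libraries and high in others do not have that shape, so the 13 have no such baseline. Among bone marrow HFD libraries these were Hif1a in 14_17 (344.2 CPM, next 0.737), Egln2 in 23_28 (480.1, next 0.786), Egln3 in 1_3 (300.8, next 0.179), Hif1an in 5_11 (41.1, next 0.214) and Bnip3 in 23_28 (0.298 CPM, 6 counts). Among bone marrow glutamine libraries they were Hif1a in 4_6 (365.9 CPM, next 74.8), Egln1 in the unnumbered library (378.0, next 30.7), Egln2 in 25_27 (596.8, next 69.4) and Vegfa in 25_27 (387.0, next 36.2). Library 18_20 stood apart for Egln3 (29.5 CPM, next 0.143), Hif1an (2.21, next 0.143) and Bnip3 (133.6, next 0.215). In adipose, Car9 stood apart in HFD library 14_17 (0.755 CPM, all others 0). The 12 bone marrow flags fell in 8 different libraries. The Bnip3 flag among HFD libraries rests on counts of 7, 6, 5 and 6, and so on the library totals.

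The glutamine effect on Hif1an differed between tissues by 6.47 on the log2 scale (adipose minus bone marrow, edgeR adjusted p = 0.0487), and by 1.06 without bone marrow HFD library 5_11. Hif1an did not pass the count filter in bone marrow alone.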

How the results depend on the processing

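Of the tests on members, Adm between tissues kept its call in 10 of 11 fits and in all 18 without 1 library. No other member call held in all fits. In adipose the glutamine comparison called 0 genes except for 31 with DESeq2, and 0 in the 9 fits without 1 library. Upper-quartile factors turned Hif1a to 0.029 and Egln1 to 0.036, and limma-voom turned Vegfa to 0.39. Without 1 library Hif1a ran from -0.21 to 0.22, Egln1 from -0.24 to 0.22 and Vegfa from -0.52 to 0.47.

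In bone marrow the number of genes called for glutamine was 0 with RLE (relative log expression) or upper-quartile factors, a stricter filter or robust fitting, 1 with limma-voom, 202 without a filter, 722 with DESeq2 and 3926, with 2 members, in the joint fit. It was 0 to 19 without 1 library. Epas1 turned to 0.56 with RLE factors, 0.76 with upper-quartile factors, 0.56 with DESeq2 and 1.29 with limma-voom, which turned Hif1a to 1.49 and Egln2 to 0.37. Without the 2 thinnest marrow libraries, a setting added after the data were seen, Egln1 turned to -0.13 and Egln2 to 7.62. Without 1 library Hif1a ran from -3.52 to 6.52, Epas1 from -0.57 to 0.49 and Egln2 from -5.06 to 7.39.

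For the difference of the glutamine effect, genes called numbered 0 with RLE or upper-quartile factors, 3 with limma-voom, 1055 with DESeq2 and 0 to 2681 without 1 library. Members called numbered 0 with RLE or upper-quartile factors, no filter, robust fitting, limma-voom and DESeq2, and 0 to 2 without 1 library. DESeq2 gave no adjusted p for Hif1a, Egln2, Egln3 and Hif1an, so its 0 covers the other members only. Upper-quartile factors turned Epas1 to -1.52, and limma-voom turned it to -2.49 and Hif1a to -1.14. Without the 2 thinnest libraries Egln1 turned to 0.10, Egln2 to -7.36 and Vegfa to -0.14. Without 1 library Hif1a ran from -6.90 to 3.35, Epas1 from -0.17 to 0.89, Egln2 from -7.04 to 5.09, Egln3 from -2.73 to 10.62 and Bnip3 from -6.72 to 0.74.

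Between tissues limma-voom called 4463 genes, RLE factors called 7 members, and 1 to 5 members were called without 1 library. Limma-voom turned Hif1a to 2.15, Epas1 to 0.96, Egln1 to 2.18 and Egln2 to 1.36. Hif1an turned to -1.08 with RLE factors and with DESeq2. Without the 2 thinnest libraries Egln1 turned to 1.30 and Egln2 to 0.43. Without 1 library Hif1a ran from -1.92 to 2.11, Egln1 from -0.76 to 1.48, Egln2 from -3.92 to 0.58 and Egln3 from -4.23 to 0.83.

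The labels give the same number pair to 1 library of each tissue without saying what it marks. After the group mean of each gene was taken off its log2 CPM, same-numbered libraries correlated at -0.009 to 0.030 over 8 pairs. In 4 of 8 the best match, among the 4 or 5 bone marrow libraries of the arm, was the same number, at most a hint of pairing. Bone marrow libraries differed widely from each other, so these values cannot decide whether pairs exist. Same-numbered libraries were not treated as paired in the main fits. With a replicate block on the pair, 0 genes and 0 members were called for the difference of effects and 7499 genes between tissues. The block turned the difference of effects to -3.94 for Hif1a, -2.17 for Epas1, 0.38 for Egln1 and -2.11 for Egln2. It turned the tissue difference to 2.58 for Hif1a, 0.40 for Epas1, 3.28 for Egln1 and 1.91 for Egln2, with Hif1an and Bnip3 newly called and Vegfa, Egln2 and Egln3 no longer called. The same 16 libraries with no pairing term gave 0 genes and 0 members for the difference of effects, and 1.34 for Egln1 between tissues.

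The cause was not tested. Bone marrow libraries held 1755 to 7323 genes at 100 or more counts, which limits every bone marrow value.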
